A study of Schizosaccharomyces pombe with 16 samples.

Results

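The strain that lacked iss10 (iss10Δ, strain p935) was compared with wild type (strain p918) on 2 of the 16 tiling arrays of this series, labelled iss10Δ-1 and iss10Δ-2 and called replicates 1 and 2 here. Both strains of Schizosaccharomyces pombe were grown in YEA at 30 °C, and both were of mating type h90 and auxotrophic for leucine, uracil and adenine, with iss10 replaced by a kanamycin resistance marker in iss10Δ alone. RNA depleted of rRNA was converted to cDNA with oligo(dT) and random primers, and iss10Δ cDNA (Cy5) and wild-type cDNA (Cy3) were hybridised to the same array. The dyes were never swapped, so any dye bias is part of every value below. The other 14 arrays hold 8 other mutants, each against its own control on the same array. Of these, mmi1Δ mei4-P572 was set against mei4-P572 (1 array). The same p918 strain was the control for rmn1Δ (1 array), red1Δ and cid14Δ (2 arrays each). Wild-type strains of their own served for rrp6Δ, pab2Δ and sen1Δ (2 arrays each). The temperature-sensitive allele mtl1-17 was set against mtl1-flag (2 arrays). Unlike the other mutants, mtl1-17 was grown below 30 °C and then shifted to 37 °C for 4 h. By the study's methods the 2 iss10Δ arrays are biological replicates, as are those of the other mutants with 2 arrays. The errors given below pool the spread between replicates over the 7 mutants with 2 arrays.

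Iss10 binds Mmi1, and together they form one submodule of MTREC, the complex of the helicase Mtl1 and the zinc-finger protein Red1 that hands RNA over to the nuclear exosome. Mmi1 is a YTH-domain protein that recognises a short repeated motif in mRNAs of meiotic genes, and in vegetative cells this marks those mRNAs for removal. Other partners in the complex are Pab2, a nuclear poly(A)-binding protein, and Rmn1, an RNA-binding protein. Rrp6 is the nuclear 3′-to-5′ exonuclease of the exosome, Cid14 is the poly(A) polymerase of the TRAMP complex, and Sen1 is a helicase known for its part in transcription termination. The comparison of iss10Δ with wild type asks which RNAs were more or less abundant without Iss10.

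The array carries 174063 numbered tiling probes, and probes with odd and with even numbers read opposite strands. The files used here do not pair the probes with genes or positions, so RNAs are given as runs of neighbouring probes of one strand, named by the numbers of their first and last probe. A transcribed run is a stretch whose control signal, averaged over the 16 arrays, was above 7.90 on the log2 scale. A mutant-revealed run was built in the same way among the other probes, from the highest signal of the 8 other mutants at each probe. Both kinds rest on a running median over probes and a least length. Some mutant-revealed runs and windows therefore still averaged above 7.90 in the controls, such as 13508-13520 (mutant-revealed, 8.04) and 81749-81759 (window, 8.56). The remaining probes were taken in windows of at most 6 probes. The signal of iss10Δ itself was used in none of these definitions. Of 23227 runs, 21285 had at least 3 usable probes on every array and were tested, of which 4067 were transcribed, 2916 were mutant-revealed and 14302 were windows. The value of a run is the mean log2 ratio of iss10Δ over wild type across its probes, centred so that the transcribed runs of the densely tiled part averaged 0.

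Replicate 1 was the dimmer array. On it, 49.99% of the probes were well above background in the iss10Δ channel and 49.1% in the wild-type channel, whereas on replicate 2 these shares were 69.2% and 71.6%. Where neither channel rose above background the ratio is set by the software, with medians there, before centring, of −0.07 on replicate 1 and 0.20 on replicate 2. Among 300 probes that were spotted 6 times, the spots of one probe had an SD of 0.27 (log2) on replicate 1 and 0.34 on replicate 2. For the 150 brighter of them the order was reversed, at 0.23 on replicate 1 and 0.095 on replicate 2. The 150 dimmer ones had 0.30 on replicate 1 and 0.48 on replicate 2. No probe was saturated. Over all tested runs the 2 arrays had almost no order in common (Pearson's r = 0.027 over 21285 runs, as a description across runs of the same 2 arrays), with r = −0.10 in transcribed runs and 0.13 in mutant-revealed runs. Spearman's rho was −0.04 over all runs and 0.08 in mutant-revealed runs, and −0.33 in transcribed runs, where the order on one array ran partly against that on the other.

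The deletion was seen directly on both arrays. The even-numbered probes 162020, 162022 and 162024 averaged −5.85 on iss10Δ replicate 1 and −5.98 on iss10Δ replicate 2 (log2 ratio to wild type), while the other 14 arrays lay between −0.53 and 0.30 at these probes. Other 3-probe stretches below −2 on both iss10Δ arrays were found only where they overlapped these probes. Elsewhere the lowest were probes 102872 to 102876, at −1.68 on replicate 1 and −1.80 on replicate 2. Probes 162022 and 162024 were not well above background in iss10Δ on either array, so their loss is a bound. On 2 arrays each, probe 162022 had a mean log2 signal of 4.36 in iss10Δ and 10.72 in wild type, which is at least 17.9-fold lower in iss10Δ, and probe 162024 had 4.41 in iss10Δ and 11.04 in wild type, at least 22.4-fold lower. The bound sets the dim channel at its lowest signal that was well above background. Which gene these probes read is not given in the files, so that they lie in iss10 rests on their loss in iss10Δ alone.

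**Figure D1:**
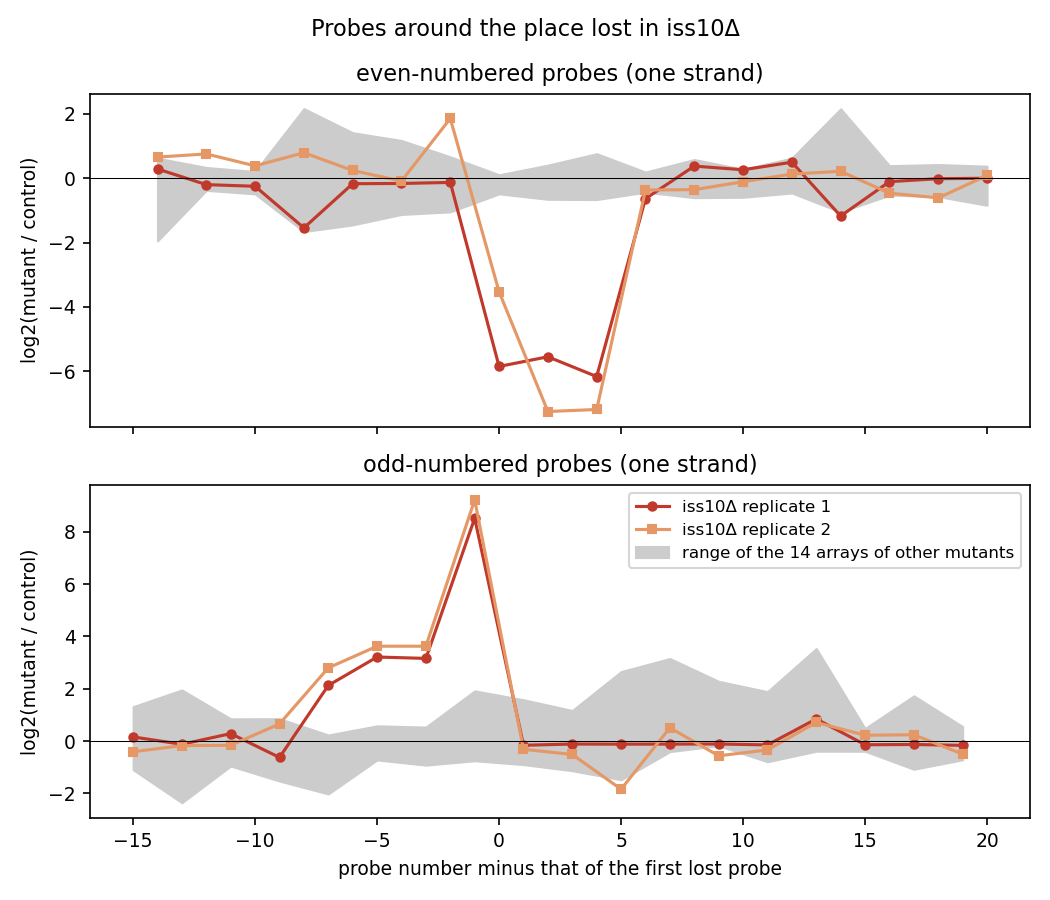
Log2 ratio of mutant over control (y axis) for single probes around the place lost in iss10Δ (x axis, probe number minus that of the first lost probe), with even-numbered probes in the upper panel and odd-numbered probes in the lower one. Circles are iss10Δ replicate 1, squares are iss10Δ replicate 2, and the grey band spans the 14 arrays of other mutants; 3 even-numbered probes fall far below the band on both iss10Δ arrays, and 4 odd-numbered probes rise above it.

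On the opposite strand, right beside the lost probes, signal was gained. Run 162013-162017 had a log2 ratio of 2.83 on iss10Δ replicate 1 and 3.35 on replicate 2, with log2 signals of 13.5 and 15.2 in iss10Δ, against 10.6 and 11.8 in wild type. Its mean of 3.09 ± 0.18 (standard error) had an adjusted p of 9.7e-07. Its value in the other mutants ran from −0.91 in mmi1Δ mei4-P572 to 0.22 in rrp6Δ, so none of the other 8 mutants was above 0.22 there. The next probe of that strand, 162019, was well above background in iss10Δ on both arrays and in wild type on neither, at mean log2 signals of 13.8 in iss10Δ and 4.92 in wild type, which makes it at least 154-fold higher. The run that holds this probe, 162019-162023, was called as well, at 2.75 on replicate 1 and 2.80 on replicate 2, but its other 2 probes were between −0.51 and −0.12 on both arrays. Run 162020-162056, which starts at the lost probes, was called lower at −0.98 ± 0.14, and 3 of its 19 probes were at −0.5 or below on both arrays.

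Across the whole array 77 runs were called higher and 7 lower in iss10Δ than in wild type (limma with 16 arrays and 9 mutants in one fit, two-sided, adjusted p under 0.05 over 21285 runs), which is 0.362% and 0.0329% of the runs tested. All 84 had the same sign on both arrays. A call tests the mean of these 2 arrays, so a like sign is in part fixed by the call. With slide as a term of the model, which takes up all but 1 residual degree of freedom, 0 of the 84 kept the call, and with slide as a random block 82 did. Their mean log2 ratio was at least 0.71 in size, and their median SD between the 2 arrays was 0.27, against 0.25 over all runs. Without adjustment, 740 runs were higher and 1347 lower at p under 0.05. Neighbouring called runs of one strand were joined, which gave 67 stretches that were higher and 7 that were lower, 10 of them made of at least 2 runs.

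By size alone, 46 runs were at least 2-fold higher on both arrays (0.216% of the runs tested) and 3 were at least 2-fold lower on both (0.0141%). Of these 49 runs, 44 were also called. The other 5 had adjusted p-values between 0.089 and 0.27, and 4 of them were higher: 17665-17677, 62988-62996, 91150-91164 and 114111-114117. Many more runs moved on one array without a like change on the other. A run past 2-fold on 1 array, and under 0.5 (log2) or of opposite sign on the other, was found 731 times, and 20 of these were past 2-fold on both arrays in opposite directions. The run that only just met the size on both arrays was 37351-37375, with 2.41 on replicate 1 and 1.01 on replicate 2, and the one that just missed it was 19434-19456, with 1.00 on replicate 1 (0.995 before rounding) and 1.24 on replicate 2. None of the 731 runs was called, which is in part fixed because a call tests the mean of the same 2 arrays.

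**Figure D2:**
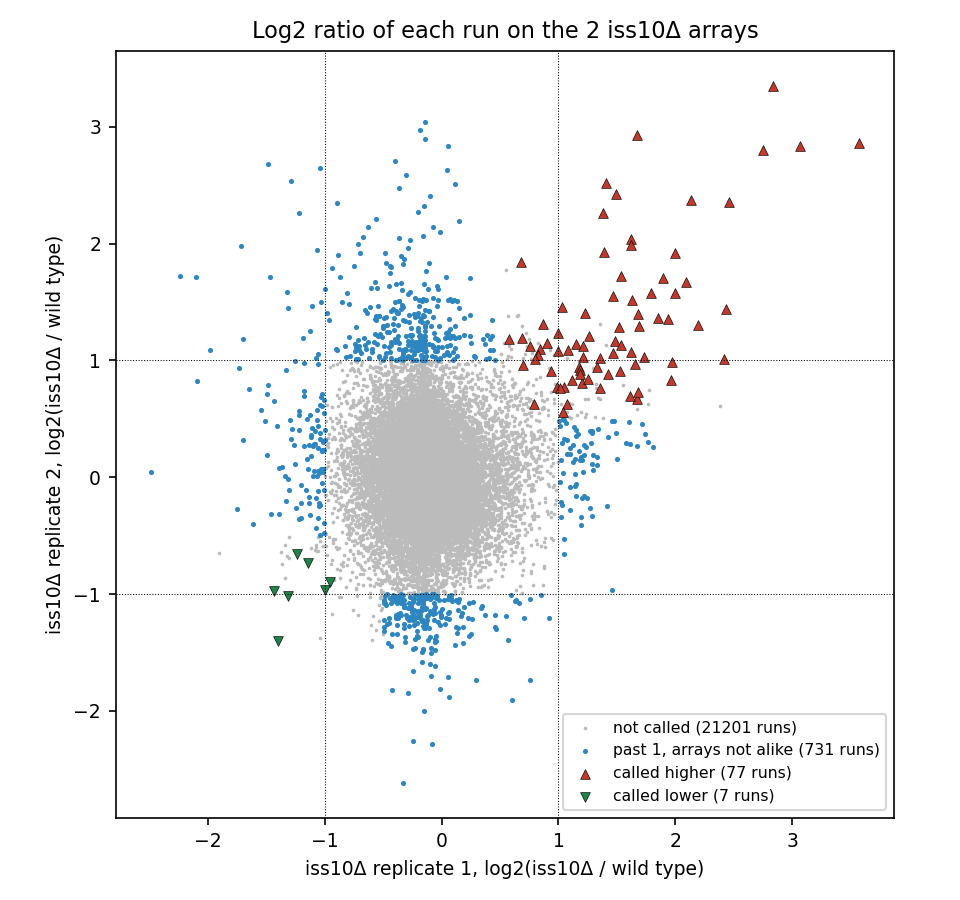
Each point is one of 21285 runs, placed by its log2 ratio of iss10Δ over wild type on replicate 1 (x axis) and on replicate 2 (y axis). The calls test the mean of these 2 values, so where the called runs lie is in part fixed. Red upward triangles are the 77 runs called higher, green downward triangles the 7 called lower, blue points the 731 runs past 1 on one array without a like change on the other (20 of them past 1 in opposite directions), grey points the other runs, and dotted lines mark a 2-fold change; the called runs lie in the upper right and lower left, while the blue points spread along both axes.

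The strongest increase outside the deleted place was a stretch of 37 probes, 106805-106877. Its lead run, 106805-106855, had 26 probes and a log2 ratio of 3.57 on iss10Δ replicate 1 and 2.86 on replicate 2. The log2 signals were 11.8 and 13.1 in iss10Δ, against 8.13 and 10.2 in wild type, so the RNA was seen in wild type as well and was more abundant in iss10Δ on both arrays. The mean of 3.22 ± 0.21 is a 9.29-fold difference (adjusted p = 3.5e-06). The neighbouring run 106857-106877 followed at 3.07 on replicate 1 and 2.83 on replicate 2. Of the 37 probes, 35 were at least 0.5 higher on both arrays. The 3 probes of this strand before the stretch averaged 2.05 on replicate 1 and 0.84 on replicate 2, and the 3 after it −0.15 and 0.56. The gain thus reached past the called start, more so on replicate 1. At the end it was less sharply bounded on replicate 2. The opposite strand averaged −0.16 on replicate 1 and 0.72 on replicate 2.

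A further 3 stretches had lead runs above 2. Run 138263-138271, the end of an 18-probe stretch, had 2.46 on replicate 1 and 2.36 on replicate 2 (mean 2.41 ± 0.17, adjusted p = 8.8e-06). Its log2 signals of 8.80 and 10.2 in iss10Δ stood against 6.26 and 7.87 in wild type, where 40% and 80% of its probes were above background. The 2 arrays thus differed by less at this run than they did at most runs. Run 22951-23003, which leads a stretch of 38 probes, had 2.13 on replicate 1 and 2.37 on replicate 2 (mean 2.25 ± 0.16, adjusted p = 8.8e-06), and 34 of the 38 probes were at least 0.5 higher on both arrays. Its log2 signals were 8.59 and 10.99 in iss10Δ, against 6.37 and 8.64 in wild type. Run 63933-63949, the end of a 23-probe stretch, had 1.68 on replicate 1 and 2.93 on replicate 2 (mean 2.30 ± 0.24, adjusted p = 0.00037), the widest gap between the arrays among these 3.

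**Figure D3:**
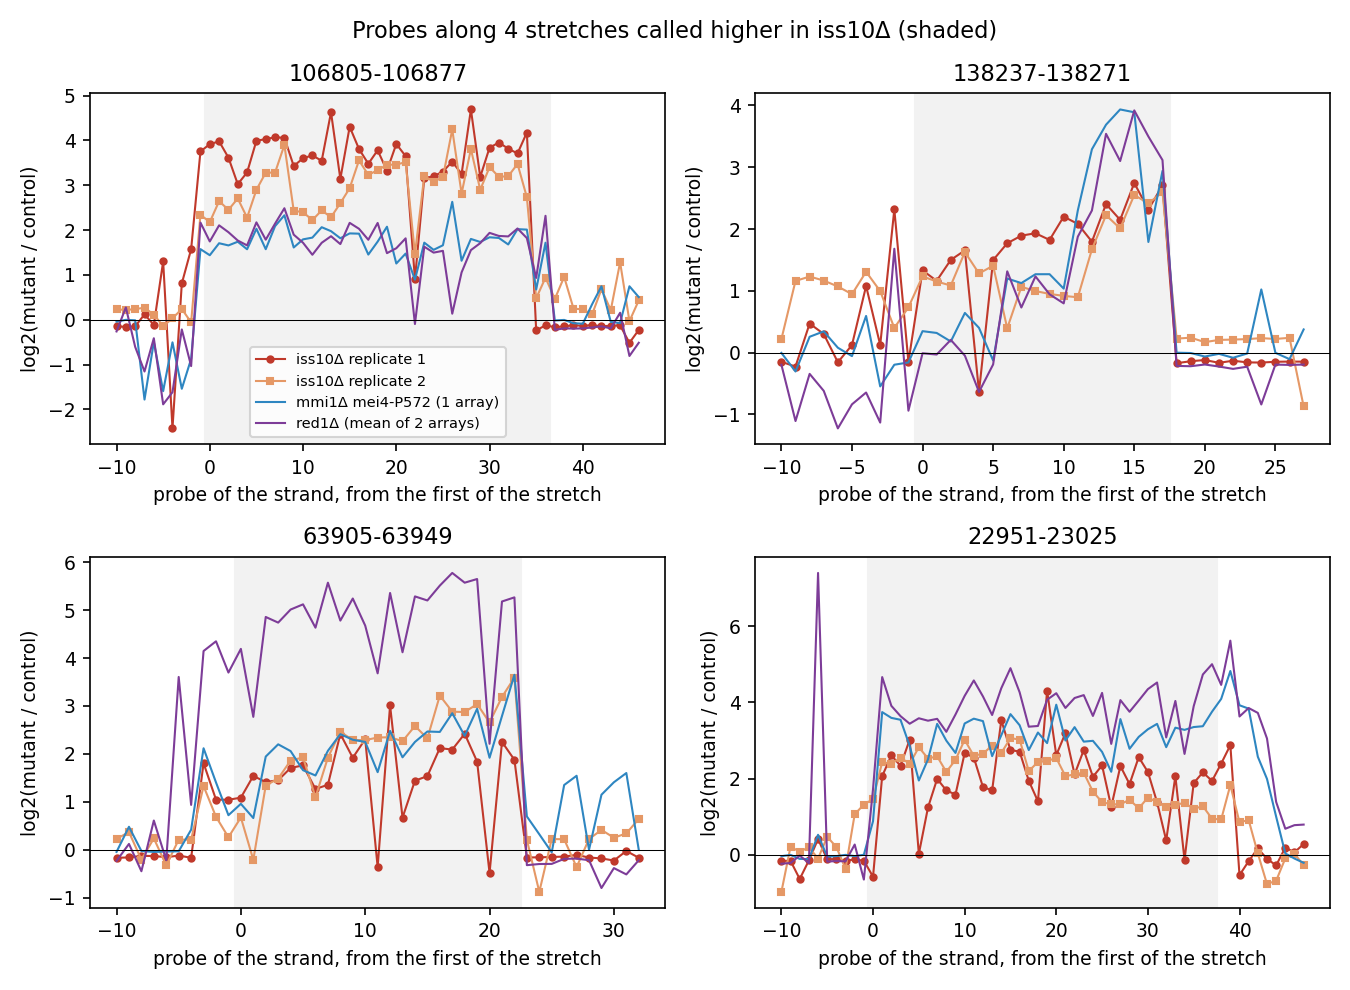
Log2 ratio of mutant over control (y axis) of single probes along 4 stretches (x axis, probes of the strand counted from the first of the stretch, shaded), for iss10Δ replicate 1 (circles), iss10Δ replicate 2 (squares), mmi1Δ mei4-P572 (blue line, 1 array) and red1Δ (purple line, mean of 2 arrays). In 106805-106877 both iss10Δ arrays run above the lines of mmi1Δ mei4-P572 and red1Δ over most probes, whereas red1Δ runs above iss10Δ in 63905-63949 and 22951-23025.

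A group of 10 more stretches had lead runs between 1.65 and 1.94. Their lead runs are 170063-170067 (1.94), 171873-171887 (1.88), 87321-87351 (1.83), 102621-102631 (1.81), 13508-13520 (1.80), 112118-112150 (1.79), 9302-9352 (1.75), 37351-37375 (1.71), 74941-74965 (1.68) and 66514-66522 (1.65), each value being the mean log2 ratio of 2 arrays. Run 9302-9352 was the one with the most signal in wild type on replicate 1, with log2 signals of 12.01 and 12.92 in iss10Δ, against 9.73 and 11.6 in wild type. At 37351-37375 and 66514-66522 no probe was well above background in wild type on replicate 1, so only replicate 2 measured the wild-type level there. Without replicate 1 the call of 37351-37375 was lost (adjusted p = 0.085), and without replicate 2 that of 102621-102631 was (adjusted p = 0.065). Together with the 4 stretches above, these 14 held 258 probes, of which 223 (86.4%) were at least 0.5 higher on both arrays. Of the 14 lead runs, 9 were mutant-revealed, 3 were transcribed and 2 were windows. In 11 of the 14, the 3 probes beyond at least 1 end averaged under 0.5 on both arrays, but beyond both ends this held in only 1. In none was the opposite strand past 1 on both arrays.

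**Figure D4:**
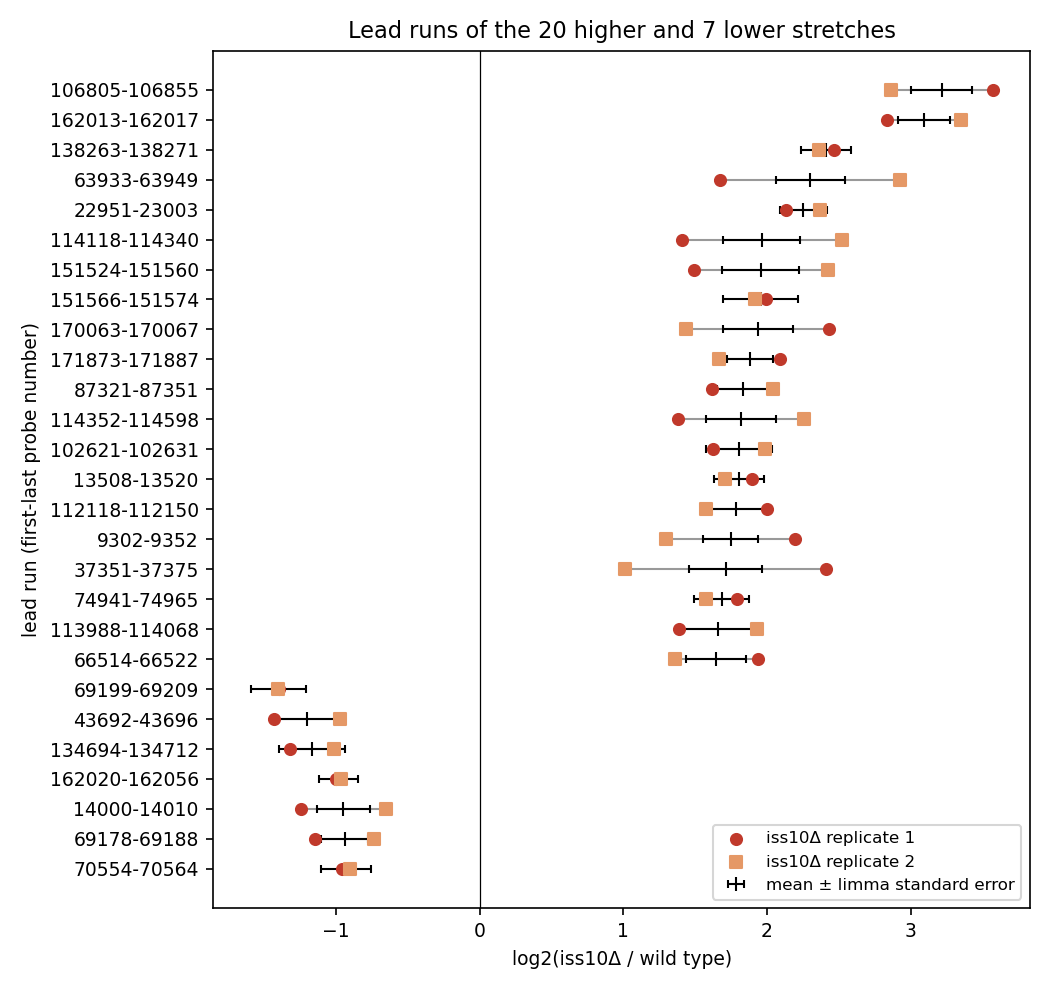
Log2 ratio of iss10Δ over wild type (x axis) of the lead run of the 20 stretches with the largest increase and of all 7 that were lower (y axis, named by first and last probe). Circles are replicate 1, squares are replicate 2, and black marks are the mean with its limma standard error. In every row both arrays lie on the same side of 0, which was a condition for being named.

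The remaining 5 of the 20 largest stretches were among the brightest RNAs on the array. Runs 113988-114068, 114118-114340, 114352-114598, 151524-151560 and 151566-151574 had log2 signals from 15.3 to 16.6 in iss10Δ, against 13.7 to 14.7 in wild type. Run 114118-114340, with 112 probes, had 1.41 on replicate 1 and 2.52 on replicate 2 (mean 1.96 ± 0.27, adjusted p = 0.0027). Without replicate 2, 4 of the 5 lost the call (adjusted p from 0.095 to 0.22), all but 151566-151574. The same 5 runs had ratios above 0 in each of the 8 other mutants, with medians over the 5 runs from 0.97 in pab2Δ to 2.39 in rmn1Δ and of 1.57 in sen1Δ. Of the 44 tested runs with a control signal of at least 14 on the log2 scale, 5 were called, and these are the 5. This set was formed after the values were seen. The RNA had been depleted of rRNA before labelling, and how completely each sample was depleted was not tested.

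The other 47 stretches that were higher had smaller means, from 0.71 to 1.61, with single arrays from 0.56 to 1.97, and in 13 of them the lead run was past 2-fold on both arrays. Among the larger were 3339-3349 (1.86 on replicate 1 and 1.36 on replicate 2), 24464-24478 (1.63 and 1.52 in the same order) and 62998-63010 (1.47 and 1.55 in the same order). At 62998-63010 no probe was well above background in wild type on replicate 1. The lengths of the 47 stretches ran from 3 to 85 probes.

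Mutant-revealed runs held more than their share of the calls. Of 2916 such runs 42 were called higher (1.44%), against 25 of 4067 transcribed runs (0.615%) and 10 of 14302 windows (0.0699%). Because mutant-revealed runs were picked for a high signal in another mutant, these shares are a description. By place, 34 of the 77 lay within 15 probes of a transcribed run of their own strand, 25 were transcribed runs themselves, 10 lay opposite a transcribed run, 7 lay beside one of the other strand and 1 lay away from any. At the median over the 77 runs, log2 signals were 8.56 and 10.1 in iss10Δ, against 6.71 and 8.57 in wild type. The share of their probes well above background averaged 75.4% on replicate 1 and 90.0% on replicate 2 in iss10Δ, against 46.5% and 84.4% in wild type. On replicate 1, then, more than every other probe of these runs had no measured wild-type level.

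The runs that rose in iss10Δ are set here beside the other mutants, each against its own control. Over the 77 runs the median log2 ratio was 1.26 in iss10Δ, 1.18 in mmi1Δ mei4-P572, 2.14 in red1Δ, 1.60 in pab2Δ, 1.09 in mtl1-17, 0.69 in rmn1Δ, 1.77 in rrp6Δ, 0.37 in cid14Δ and −0.18 in sen1Δ. Over all 21285 runs these medians lay between −0.15 and 0.25, but 42 of the 77 runs are mutant-revealed, which were defined by a high signal in another mutant. Over all 2916 mutant-revealed runs the median was 0.03 in iss10Δ, 0.07 in mmi1Δ mei4-P572, 0.74 in red1Δ, 0.59 in pab2Δ and 0.88 in rrp6Δ. The iss10Δ values were what chose the 77 runs, and red1Δ, rmn1Δ and cid14Δ have the same wild-type strain as iss10Δ in their control channel, so the likeness between them is given without a test. Levels of the 14 stretches named above were from 1.72 to 3.76 in mmi1Δ mei4-P572, from 1.76 to 5.07 in red1Δ and from −0.80 to 0.05 in sen1Δ. As 9 of the 14 lead runs are mutant-revealed, a high level in some other mutant is in part fixed by how they were defined.

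**Figure D5:**
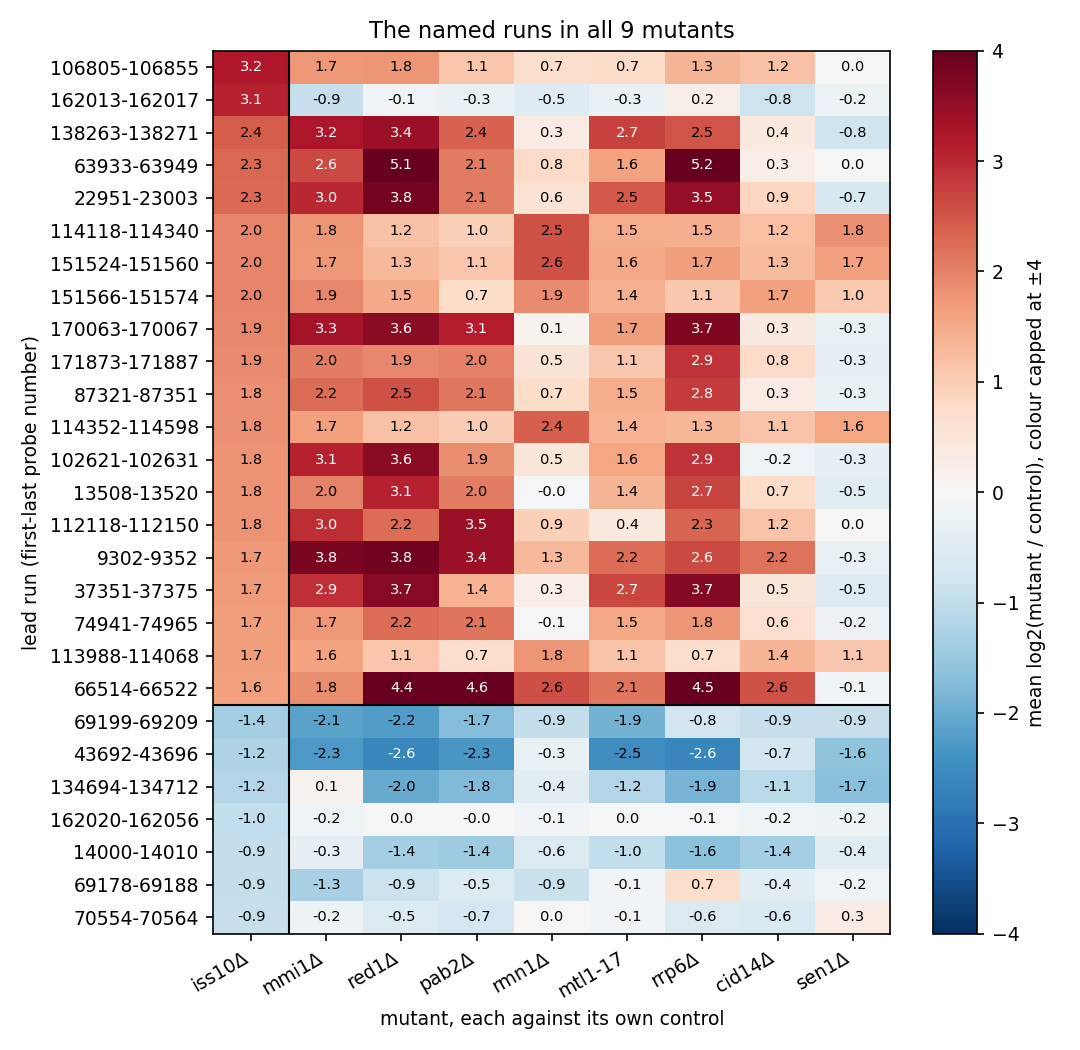
Mean log2 ratio of mutant over control, as colour and printed number, for the lead runs of the named stretches (rows, in the order of their iss10Δ value) in iss10Δ (left column) and in the 8 other mutants (x axis, mmi1Δ standing for mmi1Δ mei4-P572). Most of the upper rows are red from mmi1Δ to pab2Δ and in rrp6Δ and pale in sen1Δ, while 162013-162017 is red in iss10Δ alone and the 5 bright runs are red in all 9 columns.

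The difference of iss10Δ from mmi1Δ mei4-P572, which lacks its partner in the submodule, was tested in the same fit, with 1 array of mmi1Δ mei4-P572, whose spread was taken to be that of the other mutants. By the study's strain list that mutant and its control carry the mei4-P572 allele, are of mating type h− and have leucine as the only auxotrophy, unlike iss10Δ and p918. In these differences an effect of the background cannot be told apart from that of the deleted genes. In iss10Δ 41 runs were higher (0.193% of 21285) and 88 lower (0.413%) than in mmi1Δ mei4-P572. The first count was 20 without iss10Δ replicate 1 and 92 without iss10Δ replicate 2, so it depends on which arrays are used. Among the 77 runs called higher in iss10Δ, 7 were above and 4 below their level in mmi1Δ mei4-P572. The iss10Δ values that chose the 77 also enter this difference, which favours runs above, so these counts are a description. Run 106805-106855 had 3.57 and 2.86 in iss10Δ, against 1.73 in mmi1Δ mei4-P572, and this difference of 1.49 ± 0.37 did not pass the test (adjusted p = 0.098). Run 9302-9352 did, at 2.19 and 1.30 in iss10Δ, against 3.76 in mmi1Δ mei4-P572 (difference −2.01 ± 0.33, adjusted p = 0.012). Run 23005-23025, which follows 22951-23003 in the same stretch, did so as well, at 1.69 and 1.29 in iss10Δ, against 3.28 in mmi1Δ mei4-P572 (difference −1.79 ± 0.30, adjusted p = 0.013). Of the 4 runs below, 43685-43695 lay furthest down, at 1.67 and 0.67 in iss10Δ, against 4.65 in mmi1Δ mei4-P572 (difference −3.48). The last of the 4 was 134142-134216, at 0.68 and 1.85 in iss10Δ, against 3.03 in mmi1Δ mei4-P572 (difference −1.77). For 17 of the other 18 lead runs of the named higher stretches the difference missed the threshold, which does not show that they were alike.

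Among the 77 runs called higher in iss10Δ, this difference was called in the upward direction at 5 runs beside the 2 at the deleted place. These were 3351-3363, with 1.22 and 1.40 in iss10Δ, against −0.16 in mmi1Δ mei4-P572 (adjusted p of the difference 0.033), 10703-10725, with 0.99 and 1.08, against −0.53 (adjusted p = 0.041), 52365-52377, with 1.36 and 0.76, against −0.65 (adjusted p = 0.030), 52947-52957, with 0.70 and 0.96, against −0.84 (adjusted p = 0.0089), and 117689-117709, with 1.46 and 1.07, against −0.29 (adjusted p = 0.031). All 5 were at least at 1.09 in red1Δ. Apart from 3351-3363, which is transcribed, these are mutant-revealed runs, so a high level in another mutant was in part fixed by definition. All 5 were picked here because this difference was called. Other runs had as wide a difference that missed the threshold, such as 62998-63010, with 1.47 and 1.55 in iss10Δ, against −0.44 in mmi1Δ mei4-P572 (adjusted p = 0.091). At 52365-52377, 52947-52957 and 62998-63010 no probe was well above background in wild type on replicate 1. In iss10Δ on that array, 16.7% of the probes of 52947-52957 were, so its value on replicate 1 is mostly not a measured ratio.

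Against red1Δ, which lacks the core of the complex, 396 runs were higher in iss10Δ (1.86% of 21285) and 2552 lower (12%). Of the 77 runs called higher in iss10Δ, 40 were below and 4 above their level in red1Δ. The 4 were both runs of 106805-106877 and the 2 runs at the deleted place. Here too the iss10Δ values both chose the 77 runs and enter the difference. Run 106805-106855 had 3.57 and 2.86 in iss10Δ, against 2.07 and 1.45 in red1Δ (difference 1.46 ± 0.30, adjusted p = 0.0044). At 63933-63949, in contrast, values of 1.68 and 2.93 in iss10Δ stood against 5.03 and 5.12 in red1Δ (difference −2.77 ± 0.34, adjusted p = 0.00013). Replicate 1 of iss10Δ lay on one slide with red1Δ replicate 1 and replicate 2 of iss10Δ with mtl1-17 replicate 1. Within these slides 106805-106855 was 1.498 higher in iss10Δ than in red1Δ and 2.04 higher than in mtl1-17. It is 1 of the lead runs of the 14 stretches named above. Of these 14, 2 were higher in iss10Δ than in red1Δ within the slide, and 7 were higher than in mtl1-17.

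The 7 lower stretches held from 3 to 19 probes each. Run 69199-69209 was the lowest, with −1.40 on replicate 1 and −1.40 on replicate 2 (mean −1.40 ± 0.19, adjusted p = 0.0029). Its log2 signals of 6.33 and 8.75 in iss10Δ stood against 7.64 and 10.2 in wild type. Run 43692-43696 followed (−1.43 and −0.97, mean −1.20), but none of its probes was well above background in either channel on replicate 1. Apart from 162020-162056 at the deleted place, the others were 134694-134712 (mean −1.16), 14000-14010 (−0.95), 69178-69188 (−0.94) and 70554-70564 (−0.93). Without replicate 1 only 69199-69209 and 162020-162056 kept the call, and without replicate 2 only 162020-162056 did (adjusted p of the lost calls from 0.055 to 0.23). Over the 7 runs the median was −0.98 in iss10Δ, −1.37 in red1Δ, −1.41 in pab2Δ and −0.32 in mmi1Δ mei4-P572. Run 69199-69209 was at −2.23 in red1Δ and −2.14 in mmi1Δ mei4-P572, and 43692-43696 at −2.61 and −2.29 in the same order. Both runs were below 0 in each of the 8 other mutants. The values ran from −2.23 in red1Δ to −0.78 in rrp6Δ at 69199-69209, and from −2.62 in rrp6Δ to −0.29 in rmn1Δ at 43692-43696.

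Runs that moved on one array only were far more common on replicate 2. There, 324 runs were higher and 234 lower without a like change on replicate 1, and 220 of the 324 and 182 of the 234 were windows of at most 6 probes, as were 14302 of all 21285 runs. On replicate 1, 72 were higher and 121 lower without a like change on replicate 2. The 324 runs had a median log2 ratio of 1.22 on replicate 2 and −0.26 on replicate 1, and at the median only 16.7% of their probes were well above background in iss10Δ on replicate 1, against 83.3% on replicate 2.

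The widest gaps between the arrays were opposite changes in runs of 4 to 29 probes. Run 72693-72749, with 29 probes, had −2.24 on replicate 1 and 1.72 on replicate 2, and the order of the channels was reversed between the arrays. Log2 signals were 6.80 in iss10Δ and 8.95 in wild type on replicate 1, and 9.08 in iss10Δ and 7.38 in wild type on replicate 2. The neighbours 120190-120236 (−1.72 on replicate 1 and 1.98 on replicate 2) and 120238-120254 (−1.29 and 2.54), 111821-111845 (−2.10 and 1.72) and 164216-164222 (−1.49 and 2.68) went the same way. Their adjusted p-values for the mean were all at least 0.84. The array that shared the slide of replicate 1, red1Δ replicate 1, was at −3.37 in 72693-72749, at −1.63 and −2.51 in the pair 120190-120236 and 120238-120254, at 2.05 in 111821-111845 and at −0.52 in 164216-164222. The array on the slide of replicate 2, mtl1-17 replicate 1, lay between −1.07 and −0.28 in these 5 runs, where iss10Δ replicate 2 was above 0. What made the 2 iss10Δ arrays differ there was not tested.

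Higher on replicate 1 alone were 100881-100899 (1.46 on replicate 1 and −0.96 on replicate 2), 108146-108156 (1.05 and −0.66), 161334-161338 (1.41 and −0.25), 109674-109678 (1.28 and −0.33) and 4034-4048 (1.20 and −0.41). Over the 72 runs of this kind the median was 1.19 on iss10Δ replicate 1 and 0.20 on iss10Δ replicate 2, while red1Δ replicate 1, on the slide of iss10Δ replicate 1, had a median of 1.85 and red1Δ replicate 2, on another slide, of 1.38. For the 121 runs that were lower on replicate 1 alone, the medians were −1.13 and 0.32 on iss10Δ replicates 1 and 2, and −1.12 and −0.48 on red1Δ replicates 1 and 2. On the slide of iss10Δ replicate 2, mtl1-17 replicate 1 had a median of −0.29 over the 324 runs that were higher on iss10Δ replicate 2 alone, and of −0.20 over the 234 that were lower there. The part of the slide in these values was not tested. Lower on replicate 2 alone by the widest gaps were 1030-1046 (0.61 on replicate 1 and −1.91 on replicate 2), 2456-2464 (0.76 and −1.74), 66990-66998 (−0.33 and −2.62), 1793-1803 (−0.08 and −2.28) and 2520-2530 (0.92 and −1.20).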

How the data were processed

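The spot intensity values of 16 two-colour arrays were extracted by the authors with Agilent Feature Extraction 10.7.3.1 (version from the submitters' processing notes), which subtracted background and normalized the dyes within each array. Intensities were deposited as processed signals together with a log10 ratio. The table of the whole series deposited by the authors holds log2 ratios, which equal the scanner ratios (within 0.01 log2) on both iss10Δ arrays where they are not 0. It is 0 for 87.9% of probes on replicate 1 and 73.5% on replicate 2 and was used as an alternative. From the processed signals, log2 ratios of mutant over control were averaged per run, leaving out control spots and outliers. All 16 arrays entered 1 limma fit (limma 3.58.1, R 4.3.3) with 9 mutants as groups, 7 residual and 6.81 prior degrees of freedom, without a replicate block, at a Benjamini-Hochberg adjusted p of 0.05. The fit was tested on simulated data with noise drawn independently for each array. With slide as a random block the arrays of 1 slide had a correlation of 0.29, which the simulation left out. Named were the 20 higher and up to 10 lower stretches with the largest mean and the same sign on both arrays. Also named were 5 runs for each direction and array with the widest gap. Other runs (the 5 past 2-fold but not called, 3 of the smaller stretches and 5 that differed from mmi1Δ mei4-P572) and the bright set were chosen after their values were seen. Members, lists and alternatives were chosen with earlier results of these data known. Alternatives were other centring, normexp (offset 50), other filters, thresholds, window lengths and size limits, slide and replicate blocks, other reference mutants, and arrays left out. The number of arrays limits the precision.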

Additional observations from a re-analysis of the deposited data

Results flagged for a closer look

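The difference between the effect of iss10Δ and that of another mutant was tested at each named run, and 15 differences were called (limma, adjusted p under 0.05 over 21285 runs). From mmi1Δ mei4-P572 iss10Δ differed by 4.00 (log2, iss10Δ minus the other mutant) at 162013-162017 beside the deleted place and by −2.01 at 9302-9352. From red1Δ it differed upwards by 3.22 at 162013-162017, by 1.46 at 106805-106855 and by 1.41 at 43692-43696, a run that was low in both mutants. It lay below red1Δ at 63933-63949 (−2.77), 66514-66522 (−2.72), 9302-9352 (−2.10), 37351-37375 (−1.94), 102621-102631 (−1.80), 170063-170067 (−1.69), 22951-23003 (−1.57), 13508-13520 (−1.29), 138263-138271 (−1.02) and 162020-162056 (−1). The mmi1Δ mei4-P572 strain had 1 array and a background other than that of iss10Δ, and red1Δ replicate 1 lay on the slide of iss10Δ replicate 1.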

How the results depend on the processing

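The number of runs called moved with the processing. Normexp with loess gave 143 higher and 40 lower, and normexp centred on the median 140 and 21. Probes well above background on at least 1 iss10Δ array gave 124 and 21 (12299 runs), and on both arrays 189 and 34 (6107 runs). The number lower was 1 with the median over probes, 2 with the values of the series table, 12 with windows of 10 and 15 with the 2 iss10Δ arrays alone. A transcription threshold 1 unit lower gave 49 and 2, and a mean past 1 left 3 lower. When slide entered the model (1 residual degree of freedom), 0 runs were called in either direction by limma (1062 higher and 1324 lower at an unadjusted p under 0.05, 77 and 7 called without that term). Against the mean of cid14Δ and sen1Δ, 129 were higher and 340 lower, and 134694-134712 turned to 0.21. With the replicate block, 88 were higher and 11 lower, and 75 of the 84 calls were kept. Replicate numbers did not pair the arrays: the deviations of iss10Δ replicate 1 correlated with those of replicate 1 of the other mutants by −0.22 (pab2Δ) to 0.38 (red1Δ, on the same slide). Leaving out 1 array gave between 61 and 129 runs higher and between 3 and 55 lower. Without iss10Δ replicate 1 they were 129 and 55, and 42 of the 84 calls were kept; without iss10Δ replicate 2 they were 61 and 6, again with 42 kept.

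Runs past 1 on both arrays fell to 27 higher and 0 lower with either normexp setting, while the lower ones were 8 and 7 with the background filters on 1 or both arrays, 1 in the series table and 5 with a higher transcription threshold. A limit of 0.6 gave 160 higher and 84 lower, and a limit of 2 gave 6 and 0. This count has no value with 1 iss10Δ array left. Against mmi1Δ mei4-P572, 62 runs were higher without centring, and without iss10Δ replicate 1 or 2 between 20 and 92 were higher and between 64 and 98 lower. Against red1Δ, leaving out an iss10Δ array gave between 162 and 1287 higher and between 1643 and 2475 lower. The 3 lost probes averaged −5.92, and −4.04 with normexp and loess. Of the values of the named runs under an alternative, 691 kept the call, 116 lost it and 1 turned. Setting the median of all probes to 0 moved the median run by 0.14 on replicate 1. Alternatives chosen later, with the data in view, were leaving out the bright runs or those at the deleted place, setting the log ratio to 0 where no channel was above background, and every alternative of the differences between mutants and of the lost probes. The first 3 kept the counts of runs called within 1.5 times. The causes were not tested. Signal over background on replicate 1 limits what can be seen of dim runs.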
